A study of Mus musculus with 12 samples.

Results

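The genes described here are 9 genes of MHC class II antigen presentation and of T cell costimulation, taken by symbol from a table of 23234 genes: H2-Aa, H2-Ab1, H2-Eb1, H2-DMa, Cd74, Ciita, Cd40, Cd80 and Cd86. All 9 were in the table and were above 1 FPKM in each library. They were followed in mouse primary acute myeloid leukaemia cells that carried NRASG12V and the Mll-AF9 fusion on an F1 background of FVB/n and C57/BL/6J. The cells were kept for 24 h in RPMI medium with 10% FBS and 1 ng/ml GM-CSF and received 20 µM PD325901, 26 µM RAD001, 20 µM GDC0941 or the vehicle DMSO. Each of the 4 groups had 3 libraries. PD325901 blocks the MEK1 and MEK2 kinases of the RAS pathway. RAD001, or everolimus, blocks mTOR in its raptor complex, and GDC0941 blocks the class I enzymes of the PI3 kinase family. The fusion and the mutant RAS were present in the DMSO cells too, so that no group lacked them. The labels do not say how many mice or cultures the libraries came from, and p-values therefore measure only the spread between these libraries, which may be technical.

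MHC class II molecules are pairs of an alpha and a beta chain that show peptides from the endocytic route to CD4+ T cells, and they are made mainly by dendritic cells, B cells and macrophages. H2-Aa and H2-Ab1 encode the alpha and beta chains of the I-A molecule and H2-Eb1 the beta chain of I-E. The gene of the I-E alpha chain, H2-Ea, was listed as H2-Ea-ps, with a mean of 5.79 FPKM with DMSO. Whether these cells make I-E was not tested. Cd74 encodes the invariant chain, which fills the groove of new class II molecules and guides them to endosomes, and H2-DMa encodes a chain of the exchange factor that helps remove its last fragment. Ciita encodes the transactivator on which class II transcription depends. Cd80 and Cd86 encode the B7 ligands that engage CD28 and CTLA-4 on T cells, and Cd40 encodes a receptor of the TNF receptor family through which T cells activate the presenting cell.

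The promoters of 4 of the 9 genes (H2-Aa, H2-Eb1, H2-DMa and Cd80) were found in the RefSeq table of build GRCm38.p6. H2-Aa, H2-Eb1 and H2-DMa were picked because in the results below the first 2 fell with GDC0941 and the third did not. The 250 bases before the start of each of these genes are shown. They lie at chr17:34287824-34288073 on the minus strand for H2-Aa, at chr17:34305617-34305866 on the plus strand for H2-Eb1, and at chr17:34122582-34122831 on the plus strand for the first of 2 listed starts of H2-DMa. Capitals mark GCAAC, letters of the X box of class II promoters, and ATTGG, the reversed CCAAT of the Y box, where ATTGG follows GCAAC at 20 to 35 bases.
H2-Aa: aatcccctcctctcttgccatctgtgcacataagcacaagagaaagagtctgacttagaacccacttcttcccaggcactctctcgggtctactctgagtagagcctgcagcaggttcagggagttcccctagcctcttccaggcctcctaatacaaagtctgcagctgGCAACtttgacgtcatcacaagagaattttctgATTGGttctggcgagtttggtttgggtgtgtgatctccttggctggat
H2-Eb1: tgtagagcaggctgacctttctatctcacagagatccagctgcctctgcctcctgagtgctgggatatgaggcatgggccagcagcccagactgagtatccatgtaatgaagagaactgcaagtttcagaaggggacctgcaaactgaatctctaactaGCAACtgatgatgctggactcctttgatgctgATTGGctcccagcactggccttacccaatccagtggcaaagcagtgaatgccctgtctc
H2-DMa: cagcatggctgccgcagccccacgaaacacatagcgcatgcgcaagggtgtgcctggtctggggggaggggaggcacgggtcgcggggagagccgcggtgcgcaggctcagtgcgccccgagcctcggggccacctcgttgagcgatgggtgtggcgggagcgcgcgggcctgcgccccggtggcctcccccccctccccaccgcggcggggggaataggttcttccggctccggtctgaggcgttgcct
In H2-Aa, GCAAC began 81 bases before the start and was followed by ATTGG after 28 bases. In H2-Eb1 it began 91 bases before the start and was followed by ATTGG after 27 bases. This arrangement, searched on both strands, was not in these 250 bases of H2-DMa, of its second listed start or of Cd80, and 0.67% of 32536 promoters of the same length held it. By themselves ATTGG was in 33.8% and GCAAC in 29.7% of these promoters. The spacing was chosen after the sequences had been seen, and a match of letters is a description, not a binding site. Sequence outside these 250 bases was not searched, so H2-DMa may hold such letters elsewhere. Whether the letters bear on the changes in level was not tested.

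Values were FPKM, fragments per kilobase of transcript scaled to library size. Levels of different genes are set side by side below. Reads of FVB/n alleles may lower the levels of polymorphic H2 genes, so ratios between genes carry that limit, which was not tested. The depth of each library relative to DMSO replicate 1, estimated from the steps between low values, ran from 0.845 to 1.21, and absolute depth is unknown. The replicate 1 libraries stood apart in every group. Over the 10305 genes that averaged 1 FPKM or more, the median absolute difference of replicate 1 from the mean of replicates 2 and 3 was 0.138 to 0.207 on the log2 scale, against 0.070 to 0.162 between replicates 2 and 3. Counts of members called, and changes of single genes in several places, are therefore also given with all 4 replicate 1 libraries left out. The cells carried the myeloid markers Csf1r (144 to 312 FPKM over the 12 libraries) and Cd68 (589.7 to 1201 FPKM), and Mpo, of early granulocytes, was at 1.03 to 23.8 FPKM. Lyz2, a gene of all such cells, was listed at 0 in all 12 libraries, so a 0 in this table may be a failed estimate. The B cell factors Pax5 and Ebf1 were listed at 0 in all 12 libraries. In bulk RNA, fewer cells of a type and less RNA per cell cannot be told apart.

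In the DMSO libraries Cd74 was the most abundant of the 9 genes, at 1329 ± 173 FPKM (SD, n = 3), and ranked 34 of 10305 genes. The I-A chains H2-Ab1 and H2-Aa followed at 232 ± 10.5 and 218 ± 11.4 FPKM, H2-Eb1 at 118 ± 3.73 FPKM and H2-DMa at 87.1 ± 31.1 FPKM. The costimulatory genes were far lower, Cd40 at 13.2 ± 1.19, Cd86 at 11.2 ± 0.686 and Cd80 at 8.81 ± 1.52 FPKM, and the transactivator Ciita was lowest at 7.35 ± 0.660 FPKM. The 2 chains of I-A were close in level within a library, with a ratio of H2-Aa to H2-Ab1 of 1.11 ± 0.0527 with PD325901, 0.859 ± 0.0349 with RAD001, 1.00 ± 0.0512 with GDC0941 and 0.939 ± 0.00864 with DMSO. Cd74 exceeded H2-Aa by a ratio of 5.80 ± 0.0425 with PD325901, 6.35 ± 0.974 with RAD001, 4.85 ± 0.435 with GDC0941 and 6.09 ± 0.491 with DMSO.

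**Figure D1:**
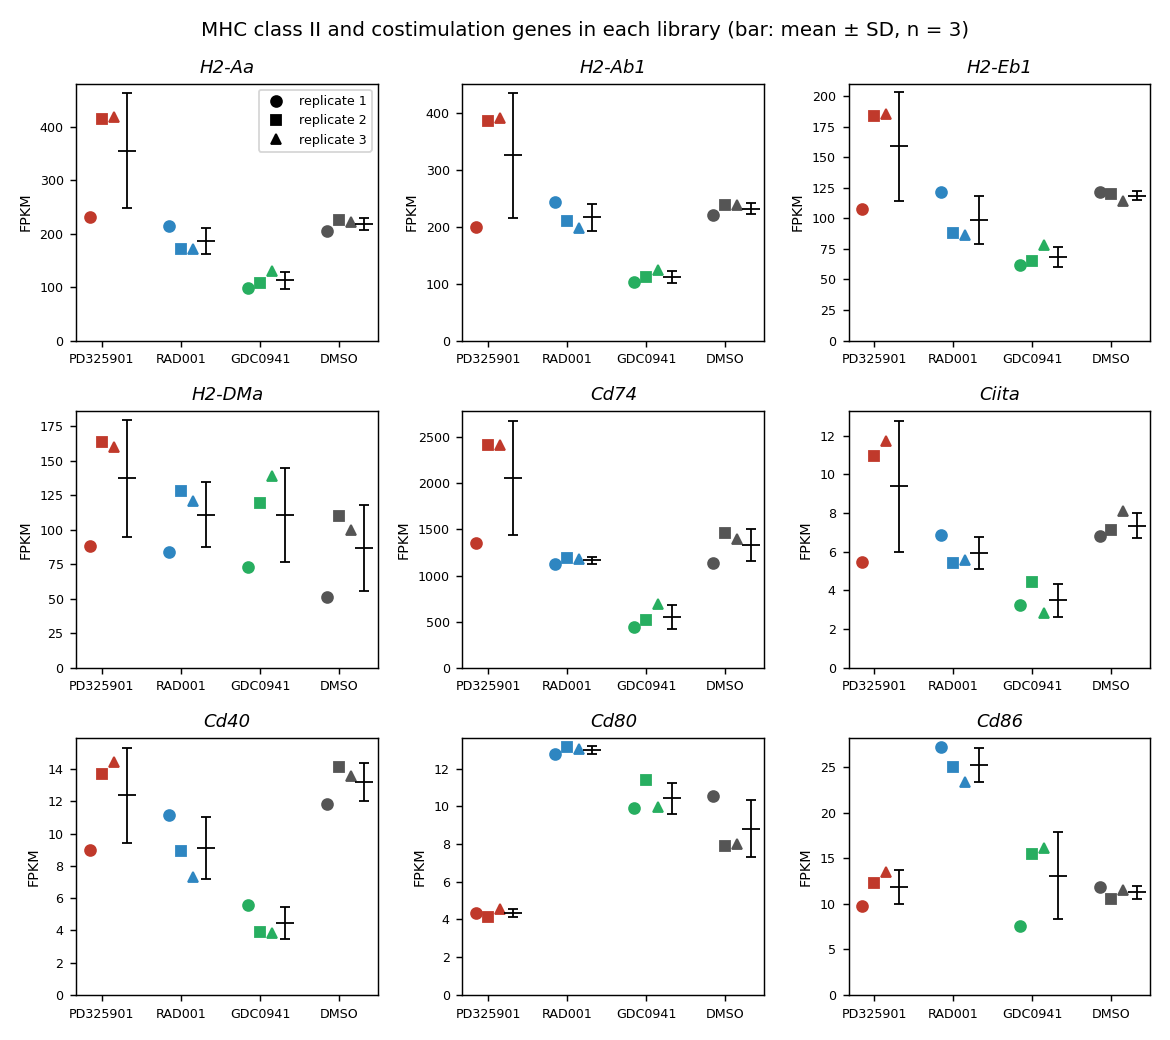
FPKM of the 9 genes (vertical axes, each from 0) in the 12 libraries by treatment; symbols mark the replicate number and black bars the mean ± SD of 3 libraries. GDC0941 libraries lie below all DMSO libraries for H2-Aa, H2-Ab1, H2-Eb1, Cd74, Ciita and Cd40, PD325901 replicate 1 lies apart from replicates 2 and 3 for the class II genes, and Cd80 is lowest with PD325901.

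The first question was which of the 9 genes differed from DMSO after each inhibitor. With GDC0941 6 of 9 fell and 0 rose, with PD325901 2 rose and 1 fell, and with RAD001 2 rose and 0 fell, by limma with Benjamini-Hochberg adjustment over all genes (adjusted p under 0.05, n = 3 libraries a group). Over all genes tested 24.3% were called with GDC0941 (12.7% lower), 46.6% with PD325901 (18.4% higher) and 31.3% with RAD001 (15.4% higher). In the other direction the background was 11.6% higher with GDC0941, 28.2% lower with PD325901 and 15.9% lower with RAD001. In this fit the share of members called with GDC0941 was above the background (calls of both directions), and the share with PD325901 was below it. That with RAD001 was less than 1 gene away from the background, and so near it. This order did not hold in all fits, since without PD325901 replicate 1 alone 7 of 9 members passed with PD325901, beside 41.2% of all genes. The libraries did not overlap with those of DMSO for 6 of the 9 genes with GDC0941, 2 with PD325901 and 3 with RAD001, against 38.7%, 62.7% and 50.8% of all genes. The median log2 change of the 9 genes was -0.91 with GDC0941, 0.38 with PD325901 and -0.18 with RAD001, beside medians of 0.02, -0.06 and 0.00 over all genes. Of all genes, 1893 were higher and 2909 lower with PD325901, and after quantile normalization 2675 were higher and 2455 lower. All changes below are differences in log2(FPKM + 1), which understate the changes of low genes, given ± SE of the limma fit. The 3 comparisons share the DMSO libraries.

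**Figure D2:**
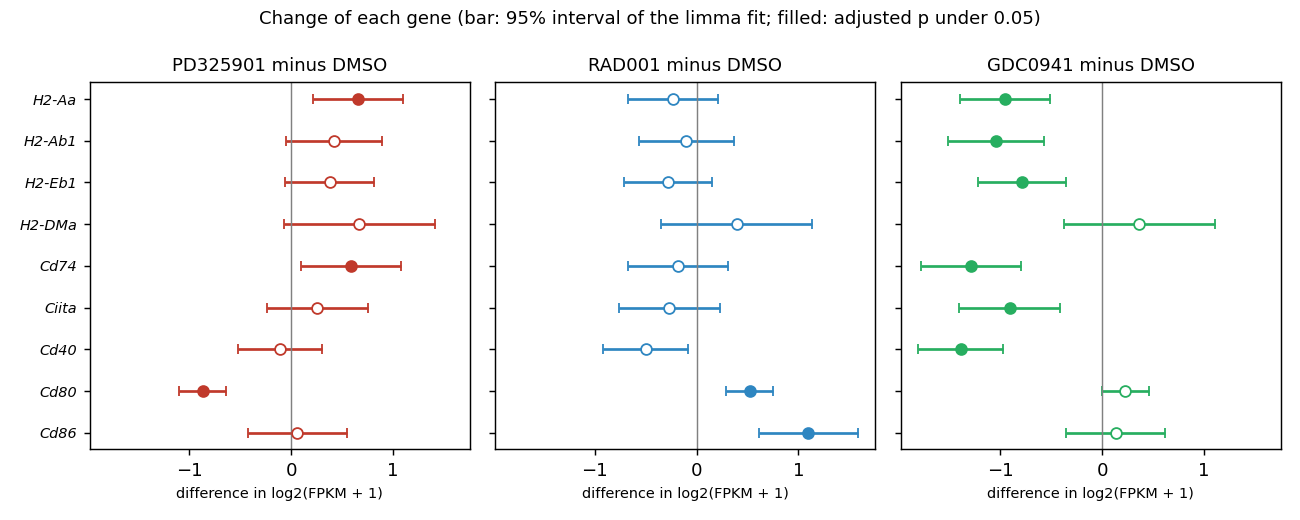
Change of each gene in log2(FPKM + 1), inhibitor minus DMSO, with the 95% interval of the limma fit; filled points have an adjusted p under 0.05. The class II genes other than H2-DMa lie left of 0 with GDC0941, and Cd80 lies left of 0 with PD325901 and right of 0 with RAD001.

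The class II chain genes fell with GDC0941. H2-Aa had 232, 416 and 419.6 FPKM in PD325901 replicates 1 to 3, 215, 172 and 172 FPKM in the RAD001 replicates, 99.1, 108 and 131 FPKM in the GDC0941 replicates, and 205, 226 and 223 FPKM in the DMSO replicates. All GDC0941 values were under all DMSO values, and all PD325901 values were above them, but PD325901 replicate 1 lay much nearer to DMSO than replicates 2 and 3 did. With GDC0941 H2-Aa averaged 113 ± 16.1 FPKM, against 218 ± 11.4 FPKM with DMSO (log2 change -0.95 ± 0.20, adjusted p = 0.00632). With PD325901 it averaged 356 ± 107 FPKM, against the same DMSO mean (0.66 ± 0.20, adjusted p = 0.0204). That call ended without PD325901 replicate 2 (0.52, adjusted p = 0.0850), PD325901 replicate 3 (0.51, adjusted p = 0.0853) or DMSO replicate 1 (0.61, adjusted p = 0.0598). With RAD001 the change of -0.23 ± 0.20 did not pass (adjusted p = 0.409, 95% interval -0.68 to 0.22), whereas with all replicate 1 libraries left out it was -0.38 (adjusted p = 0.00557).

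H2-Ab1, the partner of H2-Aa, had 199, 386 and 390.1 FPKM in the PD325901 replicates, 243, 210.0 and 197 FPKM with RAD001, 102, 112 and 123 FPKM with GDC0941, and 219.8, 238 and 238 FPKM with DMSO. It fell with GDC0941 to 112 ± 10.5 FPKM, against 232 ± 10.5 FPKM with DMSO (log2 change -1.04 ± 0.21, adjusted p = 0.00516). PD325901 replicate 1 was below all 3 DMSO libraries and replicates 2 and 3 were above them, and the change of 0.42 ± 0.21 did not pass (adjusted p = 0.127, interval -0.05 to 0.89). Without PD325901 replicate 1 it was 0.74 (adjusted p = 0.000541). With RAD001 H2-Ab1 changed by -0.10 ± 0.21 (adjusted p = 0.743, interval -0.57 to 0.37), or by -0.22 without every replicate 1 library (adjusted p = 0.0259).

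H2-Eb1 had 108, 183 and 185 FPKM in the PD325901 replicates, 121, 88.0 and 86.0 FPKM with RAD001, 61.8, 65.4 and 77.9 FPKM with GDC0941, and 121, 119.9 and 114 FPKM with DMSO. All GDC0941 values of this I-E beta chain were below all DMSO values, and PD325901 replicate 1 was again below DMSO and replicates 2 and 3 above it. It fell with GDC0941 (-0.79 ± 0.20, adjusted p = 0.0142). The changes of 0.38 ± 0.20 with PD325901 (adjusted p = 0.139, interval -0.06 to 0.81) and -0.28 ± 0.20 with RAD001 (adjusted p = 0.2996, interval -0.72 to 0.15) did not pass. Without PD325901 replicate 1 the PD325901 change of H2-Eb1 was 0.64 (adjusted p = 0.00659), and without every replicate 1 library the RAD001 change was -0.42 (adjusted p = 0.00303).

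Cd74, the invariant chain gene, had 1349.8, 2419 and 2412 FPKM in the PD325901 replicates, 1122, 1194 and 1182 FPKM with RAD001, 443, 516 and 695 FPKM with GDC0941, and 1132, 1458 and 1397 FPKM with DMSO. It had the largest fall of the class II genes with GDC0941, to 552 ± 129.6 FPKM, against 1329 ± 173 FPKM with DMSO (log2 change -1.28 ± 0.22, adjusted p = 0.00229), at rank 269 of 10305 genes from the largest fall. With PD325901 it averaged 2060 ± 615 FPKM, and PD325901 replicate 1 lay within the DMSO range (0.59 ± 0.22, adjusted p = 0.0491). This call for Cd74 ended without PD325901 replicate 2 (0.45, adjusted p = 0.173) or 3 (0.45, adjusted p = 0.170) and without DMSO replicate 1 (0.48, adjusted p = 0.152), 2 (0.66, adjusted p = 0.0655) or 3 (0.63, adjusted p = 0.0806). It also ended with no filter on low genes (adjusted p = 0.0885) and with only the 2 groups compared (adjusted p = 0.0677). When every replicate 1 library was left out the change was 0.76 (adjusted p = 0.000700). With RAD001 Cd74 changed by -0.18 ± 0.22 (adjusted p = 0.564, interval -0.67 to 0.31).

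The transactivator gene Ciita had 5.49, 10.95 and 11.7 FPKM in the PD325901 replicates, 6.89, 5.40 and 5.56 FPKM with RAD001, 3.23, 4.44 and 2.81 FPKM with GDC0941, and 6.83, 7.13 and 8.09 FPKM with DMSO. It was below all DMSO libraries in each GDC0941 library and fell to 3.49 ± 0.847 FPKM, against 7.35 ± 0.660 FPKM with DMSO (log2 change -0.91 ± 0.23, adjusted p = 0.0139). The call ended without GDC0941 replicate 3 (-0.80, adjusted p = 0.0550) or DMSO replicate 3 (-0.84, adjusted p = 0.0528). Ciita shared the split of the PD325901 libraries, with replicate 1 below and replicates 2 and 3 above DMSO. Its PD325901 change of 0.26 ± 0.23 did not pass (adjusted p = 0.378, interval -0.24 to 0.75), and was 0.56 without PD325901 replicate 1 (adjusted p = 0.0150). With RAD001 Ciita changed by -0.27 ± 0.23 (adjusted p = 0.389, interval -0.77 to 0.23).

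H2-DMa did not fall with GDC0941 as the other class II genes did. It had 88.4, 164 and 160.4 FPKM in the PD325901 replicates, 83.9, 128 and 121 FPKM with RAD001, 73.0, 119.8 and 139 FPKM with GDC0941, and 51.7, 109.9 and 99.8 FPKM with DMSO. Replicate 1 was the lowest library in each of the 4 groups, at 54.6%, 67.4%, 56.3% and 49.3% of the mean of replicates 2 and 3 with PD325901, RAD001, GDC0941 and DMSO. Its changes of 0.67 ± 0.34 with PD325901 (adjusted p = 0.125, interval -0.07 to 1.41), 0.40 ± 0.34 with RAD001 (adjusted p = 0.394, interval -0.35 to 1.14) and 0.36 ± 0.34 with GDC0941 (adjusted p = 0.476, interval -0.38 to 1.10) did not pass. In the comparisons whose same-numbered libraries deviated together, adding the replicate number as a block made H2-DMa pass for PD325901 (0.67 ± 0.10, adjusted p = 0.000538) and for RAD001 (0.40 ± 0.10, adjusted p = 0.0143). With all replicate 1 libraries left out it was 0.62, 0.25 and 0.30 higher with PD325901, RAD001 and GDC0941 (adjusted p = 0.000262, 0.0389 and 0.0196), and without PD325901 replicate 1 alone the PD325901 change was 0.96 (adjusted p = 0.0450). The ratio of H2-DMa to H2-Aa within a library was 0.969 ± 0.203 with GDC0941, against 0.396 ± 0.126 with DMSO, and the ranges did not overlap (0.736 to 1.10 and 0.252 to 0.487). This ratio was 0.386 ± 0.00678 with PD325901 and 0.613 ± 0.194 with RAD001, and both ranges overlapped that of DMSO.

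**Figure D3:**
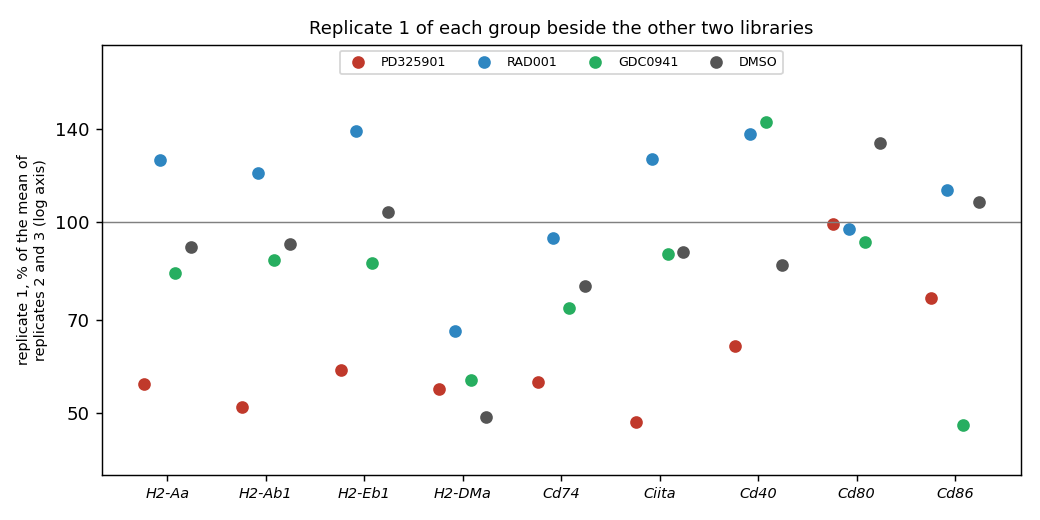
Level of each gene in replicate 1 as a percentage of the mean of replicates 2 and 3 of the same group (log axis), 1 point for each of the 4 groups; 100 means no difference. H2-DMa lies below 100 in all 4 groups (49.3 to 67.4), while H2-Aa, H2-Ab1, H2-Eb1 and Ciita lie at 48.4 to 58.4 with PD325901 and above 100 with RAD001.

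The costimulatory receptor gene Cd40 had 8.96, 13.7 and 14.4 FPKM in the PD325901 replicates, 11.2, 8.91 and 7.30 FPKM with RAD001, 5.58, 3.93 and 3.85 FPKM with GDC0941, and 11.8, 14.1 and 13.6 FPKM with DMSO. It was lowest in the GDC0941 libraries, without overlap with any other group. Cd40 fell to 4.45 ± 0.977 FPKM with GDC0941, against 13.2 ± 1.19 FPKM with DMSO (log2 change -1.39 ± 0.19, adjusted p = 0.000629), at rank 198 of 10305 genes from the largest fall. With RAD001 the libraries also lay below all DMSO libraries, but the change of -0.50 ± 0.19 did not pass (adjusted p = 0.0659). It was -0.64 without RAD001 replicate 1 (adjusted p = 0.0310) and -0.71 without every replicate 1 library (adjusted p = 0.000394), and with only the 2 groups compared it passed at the same size (adjusted p = 0.0411). With PD325901 Cd40 changed by -0.11 ± 0.19 (adjusted p = 0.668, interval -0.53 to 0.31).

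The 2 B7 ligand genes both rose with RAD001, and with PD325901 Cd80 fell while Cd86 did not pass. Cd80 had 4.32, 4.13 and 4.56 FPKM in the PD325901 replicates, 12.8, 13.1 and 13.0 FPKM with RAD001, 9.92, 11.4 and 9.98 FPKM with GDC0941, and 10.6, 7.88 and 7.99 FPKM with DMSO. PD325901 libraries lay below and RAD001 libraries above all DMSO libraries, without overlap. Cd80 fell with PD325901 to 4.33 ± 0.213 FPKM, against 8.81 ± 1.52 FPKM with DMSO (log2 change -0.87 ± 0.10, adjusted p = 7.81e-05), and rose with RAD001 to 13.0 ± 0.192 FPKM (0.52 ± 0.10, adjusted p = 0.00350). Both calls held in all 18 fits (log2 changes -0.99 to -0.56 and 0.39 to 0.66). With GDC0941 the change of 0.23 ± 0.10 did not pass (adjusted p = 0.137, interval -0.001 to 0.46). It was 0.35 without DMSO replicate 1, the highest of the DMSO libraries (adjusted p = 0.0176).

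Cd86 had 9.77, 12.3 and 13.5 FPKM in the PD325901 replicates, 27.2, 25.1 and 23.4 FPKM with RAD001, 7.56, 15.5 and 16.2 FPKM with GDC0941, and 11.8, 10.5 and 11.5 FPKM with DMSO. The RAD001 libraries were above all others. Cd86 rose with RAD001 to 25.2 ± 1.91 FPKM, against 11.2 ± 0.686 FPKM with DMSO (log2 change 1.10 ± 0.22, adjusted p = 0.00360), which placed it at rank 233 of 10305 genes from the largest rise, and the call held in all 18 fits (0.90 to 1.16). GDC0941 replicate 1 lay below and replicates 2 and 3 above the DMSO libraries, and the change of 0.13 ± 0.22 did not pass (adjusted p = 0.705, interval -0.35 to 0.62), but without GDC0941 replicate 1 it was 0.46 (adjusted p = 0.0169). With PD325901 Cd86 changed by 0.06 ± 0.22 (adjusted p = 0.848, interval -0.43 to 0.55). The ratio of Cd86 to Cd80 was 2.73 ± 0.407 with PD325901, 1.95 ± 0.170 with RAD001, 1.25 ± 0.439 with GDC0941 and 1.29 ± 0.163 with DMSO.

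With all replicate 1 libraries left out, more members passed. The counts were then 6 higher and 1 lower with PD325901, 3 higher and 4 lower with RAD001, and 3 higher and 6 lower with GDC0941, beside 55.2% of all genes called with PD325901, 46.9% with RAD001 and 41.8% with GDC0941. In that fit each group had 2 libraries, and the members that rose with GDC0941 were H2-DMa, Cd80 and Cd86. The share of members called was then above that of all genes with each inhibitor.

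The inhibitors were also compared with each other, which asks whether their effects differed. PD325901 was set against GDC0941 at the same dose of 20 µM and against RAD001 at 26 µM, doses not matched for potency. Between PD325901 and GDC0941 7 of 9 genes differed, 6 higher and 1 lower with PD325901. Of all genes 51.5% differed, with 20.9% of all genes higher and 30.7% of all genes lower with PD325901. Libraries of these groups did not overlap for 7 of the 9 genes, against 56.7% of all genes. Cd74 was higher by 1.87 ± 0.22 (adjusted p = 4.33e-05), H2-Aa by 1.61 ± 0.20 (adjusted p = 6.34e-05), Cd40 by 1.28 ± 0.19 (adjusted p = 0.000202) and Ciita by 1.16 ± 0.23 (adjusted p = 0.00127), while Cd80 was lower by a log2 difference of -1.10 ± 0.10 (adjusted p = 8.89e-06). H2-Ab1 (1.46 ± 0.21) and H2-Eb1 (1.17 ± 0.20) passed as well, and all 7 calls held in all 18 fits. H2-DMa (0.31 ± 0.34, interval -0.43 to 1.05) and Cd86 (-0.07 ± 0.22, interval -0.56 to 0.41) did not pass. With all replicate 1 libraries left out both passed, H2-DMa at 0.32 (adjusted p = 0.00916) and Cd86 at -0.28 (adjusted p = 0.0182). Without GDC0941 replicate 1 alone the Cd86 difference was -0.40 (adjusted p = 0.0194).

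Between PD325901 and RAD001 5 of 9 genes differed, where 50.2% of all genes did, 20.8% higher and 29.4% lower. Their libraries did not overlap for 4 of the 9 genes, against 62.5% of all genes. Cd80 (-1.39 ± 0.10, adjusted p = 1.9e-06) and Cd86 (-1.04 ± 0.22, adjusted p = 0.00234) were lower with PD325901, and H2-Aa (0.89 ± 0.20, adjusted p = 0.00367), Cd74 (0.77 ± 0.22, adjusted p = 0.0138) and H2-Eb1 (0.66 ± 0.20, adjusted p = 0.0163) were higher. Without PD325901 replicate 2 or 3 the calls of Cd74 (0.63 in each case, adjusted p = 0.0599 and 0.0601) and H2-Eb1 (0.54 and 0.53, adjusted p = 0.0687 and 0.0701) ended. That of H2-Eb1 also ended without RAD001 replicate 2 (0.59, adjusted p = 0.0585) or 3 (0.57, adjusted p = 0.0598) and with only the 2 groups compared (adjusted p = 0.0533). With the replicate number as a block H2-Ab1 (0.52 ± 0.20, adjusted p = 0.0486) and H2-DMa (0.28 ± 0.10, adjusted p = 0.0450) passed too, against 0.0607 and 0.523 without it. H2-Ab1 also passed after median-ratio scaling (0.60, adjusted p = 0.0422) and, with Cd40 (0.47, adjusted p = 0.0467), after quantile normalization (0.86, adjusted p = 0.0189). Without PD325901 replicate 1 H2-Ab1 (0.84, adjusted p = 0.000159), Ciita (0.83, adjusted p = 0.00161) and Cd40 (0.59, adjusted p = 0.0187) passed. The Cd40 difference of 0.39 ± 0.19 also passed without RAD001 replicate 1 (0.53, adjusted p = 0.0461).

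Between GDC0941 and RAD001 5 of 9 genes differed, all lower with GDC0941, where 17.4% of all genes differed, 8.09% higher and 9.35% lower. The libraries did not overlap for 8 of the 9 genes, against 32.2% of all genes. They were Cd74 (-1.10 ± 0.22, adjusted p = 0.00772), Cd86 (-0.96 ± 0.22, adjusted p = 0.0132), H2-Ab1 (-0.94 ± 0.21, adjusted p = 0.0126), Cd40 (-0.89 ± 0.19, adjusted p = 0.00979) and H2-Aa (-0.72 ± 0.20, adjusted p = 0.0321). The Cd86 call ended with only the 2 groups compared (adjusted p = 0.0726). The H2-Aa call ended without any 1 of the RAD001 replicates or without GDC0941 replicate 1 or 2 (log2 differences -0.78 to -0.61, adjusted p = 0.0660 to 0.0839), with no filter (adjusted p = 0.0593) and after quantile normalization (adjusted p = 0.105). Ciita (-0.64 ± 0.23, interval -1.14 to -0.14), H2-Eb1 (-0.51 ± 0.20, interval -0.94 to -0.07) and Cd80 (-0.29 ± 0.10, interval -0.52 to -0.06) missed the threshold although their libraries did not overlap. With all replicate 1 libraries left out these 3 genes passed, at -0.51 for Ciita (adjusted p = 0.0307), -0.28 for H2-Eb1 (adjusted p = 0.0308) and -0.27 for Cd80 (adjusted p = 0.0454). H2-DMa differed by -0.03 ± 0.34 (interval -0.77 to 0.71).

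The order of the group means was PD325901, DMSO, RAD001, GDC0941 from high to low for H2-Aa, H2-Ab1, H2-Eb1, Cd74 and Ciita. DMSO and RAD001 did not pass for any of these 5 genes in the unweighted fit of all libraries. With library weights H2-Aa (-0.36, adjusted p = 0.00457), H2-Eb1 (-0.39, adjusted p = 0.00215) and Ciita (-0.42, adjusted p = 0.00633) were lower with RAD001. The step between PD325901 and DMSO passed for H2-Aa and Cd74, and that between RAD001 and GDC0941 for H2-Aa, H2-Ab1 and Cd74. For Cd40 the order was DMSO, PD325901, RAD001, GDC0941, and only the step between RAD001 and GDC0941 passed. For Cd80 it was RAD001, GDC0941, DMSO, PD325901, with only the step between DMSO and PD325901 passing, and for Cd86 RAD001, GDC0941, PD325901, DMSO, with only the step between RAD001 and GDC0941 passing. For H2-DMa, in the order PD325901, RAD001, GDC0941, DMSO, no step passed in the fit of all libraries without a block. The step between PD325901 and RAD001 passed with the replicate block given above. It also passed with all replicate 1 libraries left out (0.38, adjusted p = 0.00443), as did the step between GDC0941 and DMSO.

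Across the 12 libraries, on log2(FPKM + 1), H2-Aa correlated with H2-Ab1 at r = 0.974, with H2-Eb1 at 0.984, with Cd74 at 0.972, with Ciita at 0.926 and with Cd40 at 0.845. With H2-DMa the r was 0.351, with Cd86 -0.027 and with Cd80 -0.717. The points are 4 treatment groups of 3 libraries that share treatment and replicate number, so these values describe the pattern and carry no test. The 3 genes most like each member were sought among the 10305 genes by the same r. For H2-Aa they were H2-Eb1, H2-Ab1 and Cd74, and for H2-Ab1 they were Cd74, H2-Aa and H2-Eb1. For H2-Eb1 they were H2-Aa, H2-Ab1 and H2-DMb2 (r = 0.940), for Cd74 H2-Ab1, H2-Aa and Arid5a (0.957), and for Ciita H2-Ab1 (0.950), Rfx5 (0.933) and H2-Aa. Cd40 was most like Cyld (0.968), Rfx5 (0.956) and Lbh (0.944). Cd80 was most like Dusp6 (0.987), Hilpda (0.986) and Fosl1 (0.985), of which Dusp6 averaged 5.85 ± 0.737 FPKM with PD325901, 275 ± 14.1 FPKM with RAD001, 135 ± 10.5 FPKM with GDC0941 and 87.7 ± 26.9 FPKM with DMSO. Cd86 was most like Asb6 (0.968), Met (0.931) and Birc3 (0.928), and H2-DMa like Zfp839 (0.932), Ccr2 (0.932) and Znf512b (0.905).

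**Figure D4:**
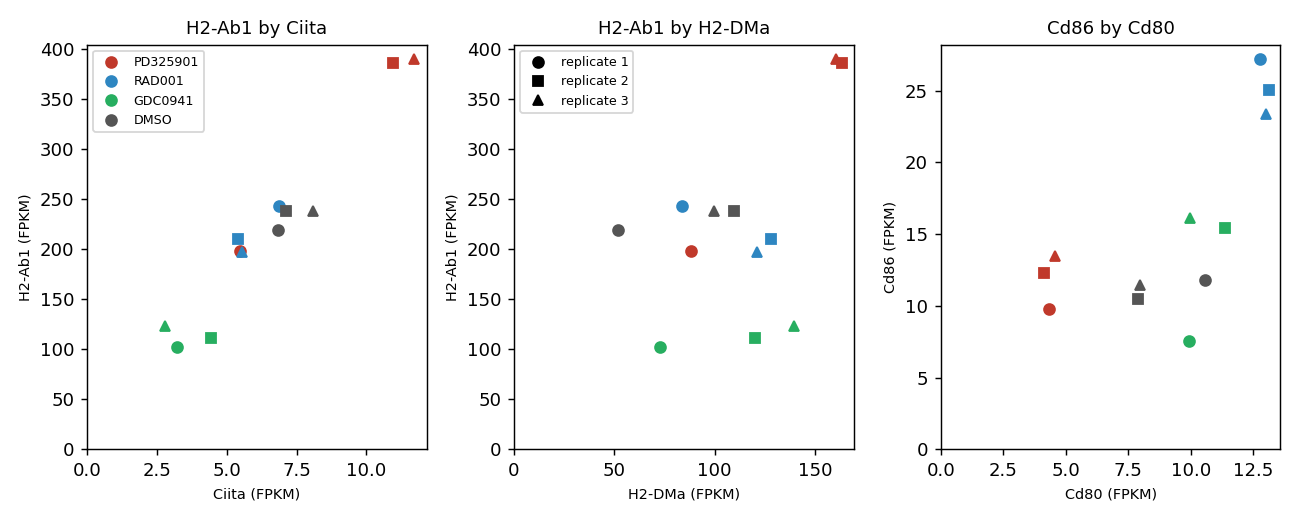
Levels in FPKM of H2-Ab1 by Ciita (left), H2-Ab1 by H2-DMa (centre) and Cd86 by Cd80 (right) in the 12 libraries; colours mark the treatment and symbols the replicate number. H2-Ab1 and Ciita are highest in PD325901 replicates 2 and 3 (386 and 390.1 FPKM of H2-Ab1) and lowest in the GDC0941 libraries (102 to 123 FPKM), whereas H2-DMa does not order the libraries by treatment.

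Lists of genes of the pathway, some of them members, are read beside the same background of 46.6%, 31.3% and 24.3% of all genes called with PD325901, RAD001 and GDC0941. The lists are small, so a share less than 1 gene away from the background is called near it. The shares that follow count the members that a list holds. The share called was above the background with RAD001 in the B7 list. With GDC0941 it was above in the class II chain, TNF family, adhesion and class I lists. It was near the background with PD325901 in the class II chain, processing, B7, TNF family and adhesion lists. The same held with RAD001 in the processing, TNF family and CD40 signalling lists. With GDC0941 the regulator, processing and CD40 signalling lists were near it, and all other shares were below it. Without the members, 1 of 3 B7 genes rose with RAD001, 0 passed with GDC0941, and 2 of 5 chain genes fell with GDC0941, all near the background. Of 6 TNF family genes 1 rose and 3 fell with GDC0941, above it, and of 14 CD40 signalling genes 1 rose and 1 fell, below it. Of 10 tested chain and chaperone genes, 5 of them members, 6 fell and 0 rose with GDC0941, 4 rose and 0 fell with PD325901, and 0 passed with RAD001 by limma, where 2 had an unadjusted p under 0.05, with medians of -0.74, 0.44 and -0.14. H2-Oa, a chain of the inhibitor of the DM exchange factor, averaged 8.83 ± 0.831 FPKM with PD325901, 4.29 ± 1.03 with RAD001, 2.32 ± 0.262 with GDC0941 and 5.86 ± 1.27 with DMSO. It fell with GDC0941 (-1.03 ± 0.16, adjusted p = 0.00119) and rose with PD325901 (0.53 ± 0.16, adjusted p = 0.0177). The rise ended without PD325901 replicate 1 (0.50, adjusted p = 0.0552) or 3 (0.50, adjusted p = 0.0577) or DMSO replicate 2 (0.39, adjusted p = 0.0773). With RAD001 H2-Oa changed by -0.38 ± 0.16 (adjusted p = 0.0946), or by -0.53 without RAD001 replicate 1 (adjusted p = 0.0256) and -0.52 without DMSO replicate 2 (adjusted p = 0.0453), and it passed with the replicate number as a block (adjusted p = 0.0289). Without every replicate 1 library this change was -0.39 (adjusted p = 0.037). H2-DMb2, a beta chain of the exchange factor whose split from the near-identical H2-DMb1 is uncertain, fell with GDC0941 (-0.61 ± 0.15, adjusted p = 0.0131), a call that ended without GDC0941 replicate 2 (-0.53, adjusted p = 0.0525). Its rise with PD325901 (0.45 ± 0.15, adjusted p = 0.0284) ended without PD325901 replicate 2 (0.35, adjusted p = 0.114) or 3 (0.41, adjusted p = 0.0881) and without DMSO replicate 1 (0.45, adjusted p = 0.0647), 2 (0.47, adjusted p = 0.0571) or 3 (0.44, adjusted p = 0.0734).

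Among 23 regulators of class II transcription, Ciita included, 2 rose and 4 fell with GDC0941, 6 rose and 2 fell with PD325901, and 4 rose and 1 fell with RAD001 (medians -0.05, 0.08 and 0.11). Rfx5, a subunit of the factor that binds the X box, fell with GDC0941 to 2.20 ± 0.165 FPKM, against 4.20 ± 0.494 FPKM with DMSO (-0.70 ± 0.12, adjusted p = 0.00170). Without every replicate 1 library Rfx5 also fell with RAD001 (-0.37, adjusted p = 0.024). The interferon gamma receptor genes Ifngr1 (0.56 ± 0.09, adjusted p = 0.00160) and Ifngr2 (0.30 ± 0.07, adjusted p = 0.0132) rose with GDC0941. The GDC0941 call of Ifngr2 ended with only the 2 groups compared (adjusted p = 0.0540). Ifngr1 (0.67 ± 0.09) and Ifngr2 (0.32 ± 0.07) rose with PD325901, and Ifngr2 (0.62 ± 0.07) rose with RAD001. Prdm1, a repressor of Ciita in B cells, rose with PD325901 to 2.62 FPKM (1.08 ± 0.13, adjusted p = 6.11e-05) and with RAD001 to 2.25 FPKM (0.94 ± 0.13, adjusted p = 0.000373), against 0.706 FPKM with DMSO. The histone methyltransferase gene Ezh2 fell with PD325901 (-0.90 ± 0.14), RAD001 (-1.21 ± 0.14) and GDC0941 (-1.13 ± 0.14).

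Of 10 tested genes that process antigen or the invariant chain, 4 rose and 1 fell with PD325901, 3 rose and 1 fell with RAD001, and 2 rose and 1 fell with GDC0941 (medians 0.26, 0.28 and 0.15). Ctss, the cathepsin that trims the invariant chain in dendritic cells and macrophages, averaged 3156 FPKM with PD325901, 1226 FPKM with RAD001 and 2356 FPKM with GDC0941, against 1057 FPKM with DMSO. It rose with PD325901 (1.59 ± 0.27, adjusted p = 0.000754) and with GDC0941 (1.16 ± 0.27, adjusted p = 0.0102). Without every replicate 1 library Ctss also rose with RAD001 (0.29, adjusted p = 0.0300). Ctsl, another cathepsin, fell with PD325901 (-0.89 ± 0.18, adjusted p = 0.00224) and rose with RAD001 (1.70 ± 0.18, adjusted p = 0.000107). In the fit without every replicate 1 library Ctsl rose with GDC0941 too (0.28, adjusted p = 0.0185). Ifi30, a lysosomal thiol reductase, rose with PD325901 (0.84 ± 0.10, adjusted p = 8.14e-05) and RAD001 (0.48 ± 0.10, adjusted p = 0.00495, but 0.18 and adjusted p = 0.122 after quantile normalization), and the cathepsin gene Ctsh rose with PD325901 (1.39 ± 0.19, adjusted p = 0.000200).

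Of 5 tested B7 family ligand genes, Cd80 and Cd86 among them, 3 rose and 0 fell with RAD001, 1 rose and 1 fell with PD325901, and 0 passed with GDC0941 by limma, where 0 had an unadjusted p under 0.05 (medians 0.84, -0.07 and -0.10). Cd274, the gene of PD-L1, rose with RAD001 to 98.2 ± 15.4 FPKM, against 54.0 ± 3.08 FPKM with DMSO (0.84 ± 0.13, adjusted p = 0.000687). Icosl, the ligand of ICOS, rose with PD325901 to 23.6 FPKM, against 13.2 FPKM with DMSO (0.79 ± 0.19, adjusted p = 0.00491). It also rose with RAD001 with the replicate number as a block (0.43, adjusted p = 0.0482) and without every replicate 1 library (0.54, adjusted p = 0.00159). Of 7 tested TNF family genes, Cd40 included, 1 rose and 4 fell with GDC0941, 2 rose and 1 fell with PD325901, and 1 rose and 1 fell with RAD001 (medians -1.07, -0.11 and -0.38). Tnfsf9, the ligand of 4-1BB, fell with PD325901 to 1.50 FPKM (-3.39 ± 0.19, adjusted p = 7.63e-07) and rose with RAD001 to 67.1 FPKM (1.37 ± 0.19, adjusted p = 0.000402) and with GDC0941 to 73.1 FPKM (1.49 ± 0.19, adjusted p = 0.000384), against 25.2 FPKM with DMSO. Tnfsf8 fell with RAD001 (-1.20 ± 0.26) and GDC0941 (-1.78 ± 0.26), and Tnfrsf14, a receptor for LIGHT and BTLA, fell with GDC0941 (-1.49 ± 0.25). With the replicate number as a block Tnfrsf14 also rose with PD325901 (0.386, adjusted p = 0.00849) and fell with RAD001 (-0.375, adjusted p = 0.0146). Tnfsf13b, the B cell survival factor BAFF, rose with PD325901 (1.38 ± 0.28, adjusted p = 0.00219). It fell with RAD001 with the replicate number as a block (-0.79, adjusted p = 0.0255) and without every replicate 1 library (-0.92, adjusted p = 0.00155). Its fall with GDC0941 (-1.07 ± 0.28, adjusted p = 0.0184) ended without GDC0941 replicate 2 (-0.97, adjusted p = 0.0644), DMSO replicate 2 (-0.93, adjusted p = 0.0747) or DMSO replicate 3 (-0.84, adjusted p = 0.0769), after quantile normalization (-0.89, adjusted p = 0.0576) and with only the 2 groups compared (adjusted p = 0.0516).

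In the list of 15 CD40 signalling genes, which holds Cd40, 3 rose and 1 fell with PD325901, 4 rose and 0 fell with RAD001, and 1 rose and 2 fell with GDC0941 (medians 0.10, 0.35 and -0.14). The adaptor Traf5 rose with PD325901 (0.73 ± 0.11) and RAD001 (0.69 ± 0.11). With GDC0941 its rise (0.35 ± 0.11, adjusted p = 0.0410) ended without GDC0941 replicate 2 (0.36, adjusted p = 0.0778) or 3 (0.29, adjusted p = 0.118) or DMSO replicate 1 (0.29, adjusted p = 0.130) or 3 (0.32, adjusted p = 0.123). It also ended with a pseudocount of 5 FPKM (adjusted p = 0.0556), no filter (0.0690), median-ratio scaling (0.0584) or only the 2 groups compared (0.103). Birc3, an inhibitor of apoptosis bound to the CD40 receptor complex, rose with RAD001 (0.81 ± 0.12, adjusted p = 0.000769), as did the NF-kB subunit Rela (0.46 ± 0.08, adjusted p = 0.00201), and the kinase gene Map3k14 rose with PD325901 (0.68 ± 0.15, adjusted p = 0.00403). Without every replicate 1 library Map3k14 rose with RAD001 (0.51, adjusted p = 0.00182), Birc3 with PD325901 (0.23, adjusted p = 0.0233) and Rela with GDC0941 (0.30, adjusted p = 0.0229). Of 8 tested adhesion and maturation genes of presenting cells, 3 rose and 1 fell with PD325901, 0 passed with RAD001 by limma, where 0 had an unadjusted p under 0.05, and 3 rose and 2 fell with GDC0941 (medians 0.57, -0.07 and 0.18). Cd48 rose with PD325901 (0.59 ± 0.09) and GDC0941 (0.40 ± 0.09), and Pvr fell with PD325901 (-0.78 ± 0.17). With all replicate 1 libraries left out, Ccr7 (0.69, adjusted p = 0.000427) and Pvr (0.58, adjusted p = 0.000844) rose and Cd48 (-0.30, adjusted p = 0.00492) fell with RAD001. Cd48 also passed with RAD001 after quantile normalization (-0.27, adjusted p = 0.0186) and without RAD001 replicate 1 (-0.26, adjusted p = 0.0389). Ccr7, the lymph node homing receptor, rose with PD325901 (1.79 ± 0.37, adjusted p = 0.00251). With GDC0941 the rise of Ccr7 (1.28 ± 0.37, adjusted p = 0.0289) ended without GDC0941 replicate 2 (1.29, adjusted p = 0.0681) or 3 (1.27, adjusted p = 0.0751) or DMSO replicate 2 (1.04, adjusted p = 0.110) or 3 (1.15, adjusted p = 0.0960), and with no filter (adjusted p = 0.0534). Lgals9, or galectin 9, fell with GDC0941 (-0.83 ± 0.16, adjusted p = 0.00396).

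Class I genes were set beside the class II genes. Of 21 class I and peptide loading genes 9 fell and 0 rose with GDC0941, 3 rose and 5 fell with PD325901, and 1 fell and 0 rose with RAD001 (medians -0.60, -0.16 and -0.22). Those that fell with GDC0941 included Tapbp, the tapasin gene (-0.63 ± 0.12, adjusted p = 0.00303), and the proteasome activator subunit Psme2 (-0.65 ± 0.13, adjusted p = 0.00422). Psme2 also fell with RAD001 without every replicate 1 library (-0.26, adjusted p = 0.0198). With PD325901 the loading chaperones Calr (-0.71 ± 0.13, adjusted p = 0.00101) and Pdia3 (-0.60 ± 0.12, adjusted p = 0.00219) fell. Whether the class I and class II lists differed was not tested.

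**Figure D5:**
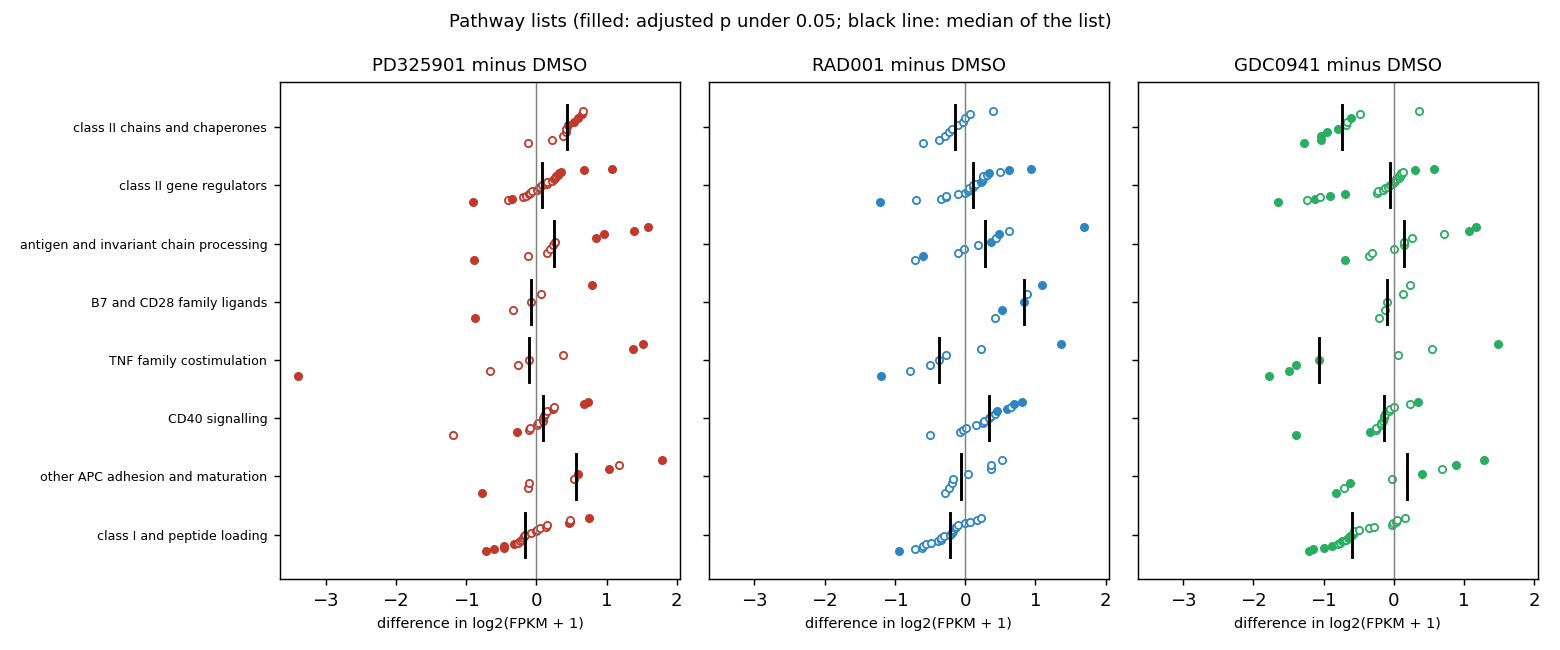
Change in log2(FPKM + 1), inhibitor minus DMSO, of each tested gene in 8 lists (rows); filled points have an adjusted p under 0.05 and black lines mark list medians. With GDC0941 the medians of the class II chain, TNF family and class I lists lie at -0.74, -1.07 and -0.60, and with RAD001 the B7 list lies at 0.84.

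Markers of other presenting cells moved with the treatments. The summed level of 10 dendritic cell markers was 86.5 to 127 FPKM with PD325901, 393 to 639 FPKM with RAD001 and 142 to 266 FPKM with GDC0941, against 83.1 to 145 FPKM with DMSO, and with RAD001 it was mostly Clec10a (406 ± 97.1 FPKM, against 69.9 ± 26.0 FPKM with DMSO). The integrin gene Itgax of that list averaged 6.47 ± 0.647 FPKM with PD325901, 50.2 ± 35.5 with RAD001, 60.1 ± 28.6 with GDC0941 and 15.3 ± 3.18 with DMSO. Of 8 tested markers of that list, which shares Ccr7 with the adhesion and maturation genes, 4 rose and 3 fell with PD325901, 2 rose and 1 fell with RAD001, and 4 rose and 2 fell with GDC0941. Within the list Cd209a was higher with GDC0941 (34.3 ± 15.0 FPKM, against 5.62 ± 2.22 FPKM with DMSO), while Flt3 (0.841 ± 0.253 FPKM, against 2.28 ± 0.337 FPKM) and Zbtb46 (1.09 ± 0.0781 FPKM, against 2.13 ± 0.168 FPKM) were lower. These 3 markers were picked with their values in view. The summed 7 B cell markers were at 6.76 to 8.13 FPKM with PD325901, 0.969 to 2.13 FPKM with RAD001, 0.643 to 2.24 FPKM with GDC0941 and 4.60 to 5.96 FPKM with DMSO, nearly all of it Cd79b, with Pax5 and Ebf1 at 0. The 7 T and NK cell markers summed to 5.06 to 9.81 FPKM with PD325901, 0.313 to 3.58 with RAD001, 0.0605 to 1.66 with GDC0941 and 0.442 to 5.55 FPKM with DMSO. The 10 monocyte and macrophage markers summed to 4268 to 4658 FPKM with PD325901, 3947 to 5079 with RAD001, 3185 to 3769 with GDC0941 and 3123 to 3457 FPKM with DMSO. Within this list Ly6c2 averaged 216 FPKM with GDC0941, against 1274 FPKM with DMSO, and Cd14 622 FPKM, against 170 FPKM. These 2 markers, too, were picked with their values in view. Of 9 tested markers of this list 3 rose and 3 fell with PD325901, 4 rose and 0 fell with RAD001, and 3 rose and 2 fell with GDC0941. The 10 neutrophil markers summed to 34220 to 44800 FPKM with PD325901, 18920 to 23060 with RAD001, 7475 to 11490 with GDC0941 and 16620 to 17320 FPKM with DMSO. In each group the neutrophil sum was mostly S100a8 and S100a9. Of the 10 neutrophil markers 5 rose and 1 fell with PD325901, 1 rose and 4 fell with RAD001, and 1 rose and 9 fell with GDC0941. Beside these marker counts stand 46.6%, 31.3% and 24.3% of all genes called with PD325901, RAD001 and GDC0941. The part of all these cell type markers in the changes of the class II and costimulation genes was not tested.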

How the data were processed

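RNA from 12 libraries was measured as FPKM per gene symbol. The authors deposited 1 table of FPKM values, made with TopHat2 2.0.4 and Cuffdiff on mm9, per the submitters' processing notes. No source used here gives the gene annotation, which Cuffdiff version was run or how libraries were scaled to each other. Reads of FVB/n alleles were thus placed on the mm9 reference, which may lower the levels of polymorphic H2 genes in all groups alike, and this was not tested.

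The 10305 genes that averaged 1 FPKM or more were analysed as log2(FPKM + 1). One linear model of 4 group means was fitted to the 12 libraries (8 residual degrees of freedom) with limma 3.58.1 in R 4.3.3, using eBayes with a trend. Tests were two-sided, and p was adjusted by the Benjamini-Hochberg method over all genes within each comparison (threshold 0.05). The procedure was tested on simulated data. Members and lists were chosen with earlier results of these data known. The text names all members, for each list up to 4 other genes with the smallest adjusted p against DMSO, and the 3 genes most like each member. Of the listed genes, Spi1, Sppl2a and H2-Ea were found under older symbols, and March1, March8 and Hhla2 were not matched.

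The alternatives were pseudocounts of 0.1 and 5 FPKM, no filter, quantile normalization, scaling by median ratios, a 5 FPKM filter, fitting only the 2 groups compared, a replicate block, library weights, and leaving out each library or the replicate 1 library of every group. Leaving out every replicate 1 library together with the block was added after seeing the data. Same-numbered libraries deviated together in all 3 pairs for PD325901 and RAD001 against DMSO (r = 0.183 to 0.316 and 0.201 to 0.379), PD325901 against RAD001 (0.149 to 0.345) and GDC0941 against RAD001 (0.309 to 0.583). The fit reported first has no block in any comparison. In these 4 comparisons the fit with the replicate number as a block is given beside it where the call of a member changes. For named list genes it is given where a call against DMSO changes. The pairing comes from the values and not from the labels. The rule was an r above 0.1 in each of the 3 pairs, on deviations from the group means. It was not met by PD325901 against GDC0941 (lowest r = -0.139) or by GDC0941 against DMSO (lowest r = 0.0354). Libraries matched best with their own number in 3 of 3 cases for PD325901 against DMSO and in 2 for GDC0941 against RAD001. For RAD001 against DMSO and PD325901 against RAD001 it was 1. Replicate 1 libraries that stand apart in both groups can alone give such r, so a pairing of replicates 2 and 3 is not shown.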

Additional observations from a re-analysis of the deposited data

How the results depend on the processing

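With FPKM alone, absolute depth is unknown and no counting error can be given. Of the 9 genes' changes against DMSO, the GDC0941 falls of H2-Aa, H2-Ab1, H2-Eb1, Cd74 and Cd40, the Cd80 calls with PD325901 and RAD001 and the Cd86 rise with RAD001 held in all 18 fits. The number of members that changed with PD325901 against DMSO (3) was 7 with library weights, 7 without the replicate 1 library of every group and 7 when the replicate block was added to that, and ran from 1 to 7 with 1 library left out. For RAD001 against DMSO (2) it was 6, 7 and 6 under the same settings and 2 to 3 with 1 library left out. With library weights 68.6% of all genes were called with PD325901 and 67.2% with RAD001, so that the member count with RAD001 was at the background. For PD325901 against RAD001 (5) it was 8, 9 and 9, and 3 to 8. For GDC0941 against RAD001 (5) it was 8 without the replicate 1 libraries, and 4 to 5, and for GDC0941 against DMSO (6) 5 to 7. The count of all genes was 6923 with library weights for RAD001 against DMSO (main 3224). For GDC0941 against DMSO (2503) it was 3849 with library weights, 4281 without the replicate 1 libraries, 3864 with the block added, and 1632 (without DMSO replicate 2) to 3131 with 1 library left out. For GDC0941 against RAD001 (1798) it was 3048 with library weights, 695 with only the 2 groups compared, 3413 without the replicate 1 libraries, 3010 with the block added, and 960 to 1975 with 1 library left out, the lowest without RAD001 replicate 2 (960) and 3 (967). With the replicate block the number of members that changed was 4, 3 and 7 for PD325901, RAD001 and GDC0941 against DMSO, and the added call with GDC0941 was H2-DMa (0.36 ± 0.10, adjusted p = 0.0249). Between inhibitors, 7, 8 and 5 members differed with the block for PD325901 against RAD001, PD325901 against GDC0941 and GDC0941 against RAD001, the added call with PD325901 against GDC0941 was H2-DMa (0.31, adjusted p = 0.0284), and the block ended no call of a member. Pvr, at -0.03 with GDC0941 against DMSO, was at 0.27 (adjusted p = 0.0423) without the replicate 1 libraries, and the cause was not tested. Of 4041 recomputed gene changes 142 lost a call, 204 gained one and 1 was called in the other direction.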
